A study of Mus musculus with 4 samples.

Results

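The genes described here encode voltage-gated sodium channels, voltage-gated calcium channels and hyperpolarization-activated cyclic nucleotide-gated (HCN) channels of the mouse brain. They were chosen by name, as every symbol of the deposited gene list that begins with Scn and a digit, Cacna, Cacnb or Hcn and a digit, except symbols ending in os. This gave 36 genes, of which 35 were among the 20060 genes with at least 1 UMI in the 4 sections: 10 pore-forming (alpha) and 4 auxiliary (beta) sodium channel subunits, 10 pore-forming calcium channel subunits (Cacna1), 4 auxiliary Cacna2d and 4 auxiliary Cacnb subunits, and 4 Hcn genes. The 31 genes with at least 50 UMIs over the 4 sections are described. Below that limit were Scn4a, Cacna1f, Scn11a, Scn10a and Cacna1s, with 0, 4, 5, 10 and 17 UMIs, whose known sites are skeletal muscle (Scn4a, Cacna1s), retina (Cacna1f) and peripheral sensory neurons (Scn10a, Scn11a). Just above it were Scn7a with 69 and Cacna2d4 with 91 UMIs.

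A neuron fires when sodium channels open on depolarization. Their alpha subunits form the pore and set where on the axon the impulse starts, while their beta subunits tune gating and bind neighboring cells. Calcium channels turn depolarization into calcium entry: P/Q-, N- and R-type channels (Cacna1a, Cacna1b, Cacna1e) drive transmitter release, L-type channels (Cacna1c, Cacna1d) link firing to transcription, and T-type channels (Cacna1g, Cacna1h, Cacna1i) open near rest and support burst firing, with Cacna2d and Cacnb subunits carrying the pore to the membrane. HCN channels open on hyperpolarization, carry a pacemaker current, and in pyramidal cells of the hippocampus and cortex damp the spread of dendritic inputs.

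Spatial gene expression was measured with Visium, in which each barcoded spot of a slide captures mRNA from a small patch of tissue, so a spot can hold several cells of different types. Each of 4 adult male C57BL/6 mice, 3 to 4 months old, gave 1 coronal section at the level of the dorsal hippocampus. All 4 carried the genotype ArcCreERT2:eYFPflx, in which the promoter of the activity-induced gene Arc drives a tamoxifen-dependent Cre that switches on eYFP. All 4 received 4-hydroxytamoxifen before the retention test, so tagged cells depend on Arc activity around that test in both groups. The 2 trained mice had learned active place avoidance, in which a zone of a rotating arena is paired with foot shock. The 2 untrained mice explored the same arena without shock. Tissue was taken 3 days after the retention test. Values in every section are given below in the order trained 1, trained 2, untrained 1 and untrained 2. The sections had 2865, 3055, 2359 and 2661 spots over tissue and 7119995, 10330015, 3560294 and 6581748 UMIs (unique molecular identifiers, each standing for 1 captured mRNA molecule). Levels are UMIs per 1000000 UMIs of the same section and region (CPM), with mean ± SD over n = 4 sections, and are compared within a gene, never between genes.

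Spots were assigned to regions from lists of marker genes, none of which is a channel gene. A region with at least 20 spots in every section was tested, which left CA1, CA3, dentate gyrus (DG), cortex layers 2 to 4, layer 5 and layer 6, thalamus, hypothalamus, striatum and white matter, with 22 to 384 spots and 45409 to 1753943 UMIs per region and section. All markers of CA1, DG, cortex layers 2 to 4 and layer 5, thalamus, hypothalamus, striatum and white matter were higher inside their region than outside it in every section, as were 5 of 6 for CA3 and 5 of 6 for cortex layer 6. The same markers had assigned the spots, so this is no independent check of the regions. CA3 had the fewest spots of the tested regions in every section. Its 36, 31 and 27 spots in trained 1, trained 2 and untrained 2 lay mostly side by side, with 36, 24 and 24 in the largest group of touching spots. In untrained 1 the 22 CA3 spots fell into 6 separate groups, the largest of 6 spots, some of them outside the hippocampus. Thalamus markers in the CA3 spots of the 4 sections summed to 276, 349, 815 and 324 CPM and striatum markers to 184, 189, 462 and 167 CPM, so that the CA3 spots of untrained 1 held the most of both. The cortex layers were scattered in every section. The largest group held 33.1%, 41.7%, 12.3% and 60.0% of the spots of layers 2 to 4 and 19.8%, 33.0%, 14.3% and 26.0% of those of layer 5, lowest in untrained 1, where they fell into 16 and 18 groups. For layer 6 it held 42.9%, 57.7%, 32.1% and 42.6%, so the results by cortex layer rest on spots that do not form continuous bands. In untrained 1 the tissue also ran off the upper edge of the slide, with CA1 starting at array row 2 against 16, 21 and 16 in trained 1, trained 2 and untrained 2, and its dorsal cortex was not captured. It was the shallowest section too, so that 0 UMIs in its CA3 still allows up to 66.1 CPM (3 counts).

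**Figure D1:**
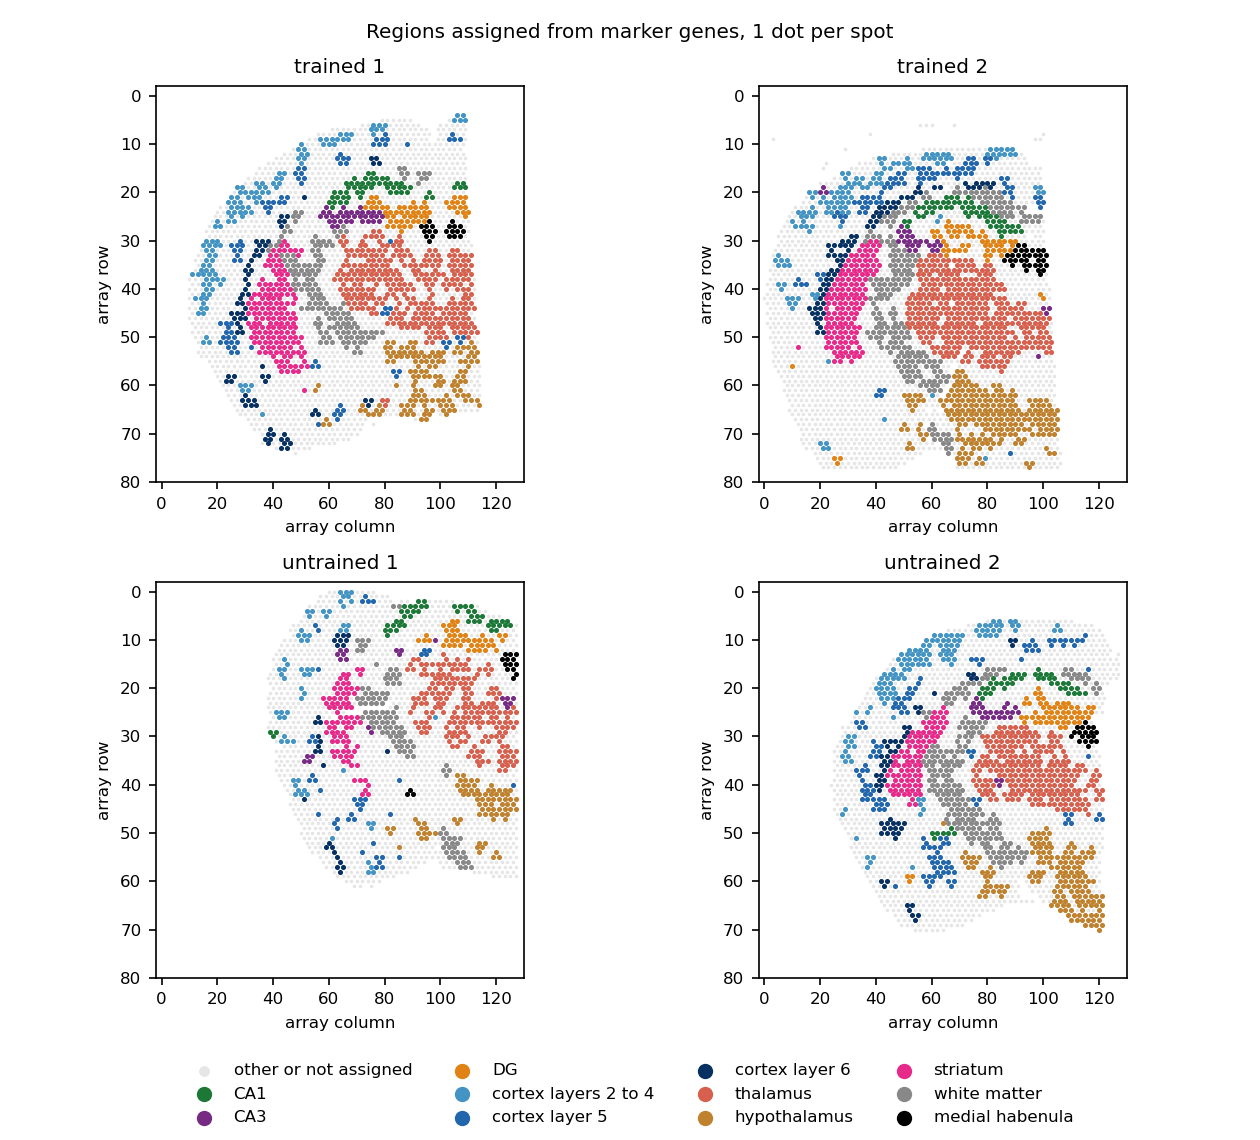
Positions of the spots of each section on the slide array (x axis, array column; y axis, array row), 1 dot per spot, colored by the region that its marker genes gave. The purple CA3 spots form a band in trained 1 and untrained 2 and lie in 6 separate groups in untrained 1.

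The first question was where in these sections each channel gene is expressed. Region sums of all 4 sections were compared in 1 edgeR model of 40 sums, blocked by section. Of the 31 channel genes 25 passed its filter on low counts, and 24 of these differed between regions at an adjusted p under 0.05, against 64.3% of the 7182 genes tested. The 1 gene not called was Cacna1b, the N-type channel (edgeR adjusted p = 0.285), although white matter taken alone was lower (-0.61). By mean level, thalamus was the highest region for 7 of the 31 genes and white matter the lowest for 16. Since each sum mixes cell types, a region with fewer cells of a type and one with less RNA per cell cannot be told apart.

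Each region was then set against the mean of the others, and the percentage of all genes called is given beside each count. The thalamus had the most channel genes called, 19 of 25 beside 37.3% of all genes, with 9 higher (19.3%) and 10 lower (18.0%). White matter followed with 18 beside 34.3%, with 2 higher (18.8%) and 16 lower (15.6%). Cortex layers 2 to 4 had 12 beside 15.4%, with 9 higher (9.98%) and 3 lower (5.46%). The hypothalamus had 11 beside 31.6%, with 3 higher (16.0%) and 8 lower (15.6%). In CA1 there were 10 beside 12.9%, with 8 higher (8.35%) and 2 lower (4.57%), and in striatum 10 beside 21.0%, with 7 higher (11.6%) and 3 lower (9.44%). In DG there were 9 beside 18.7%, with 5 higher (10.3%) and 4 lower (8.44%). Cortex layer 6 had 5 beside 8.99%, with 2 higher (6.22%) and 3 lower (2.77%), layer 5 had 4 beside 7.81%, with 4 higher (5.65%) and 0 lower (2.16%), and CA3 had 4 beside 10.5%, with 4 higher (6.85%) and 0 lower (3.63%).

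The median log2 difference of the 25 genes was lowest in white matter, at -0.70, and highest in cortex layers 2 to 4, at 0.36, while that of all 7182 genes was -0.02 and 0.00. Without untrained 2 the counts for CA1 and DG were 6 and 5. Those for cortex layers 5 and 6 were 1 and 3 without trained 2, and that for layer 6 was 3 without trained 1. These counts of channel genes stand without the percentage of all genes called in the same fits, so they show no loss particular to channel genes.

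**Figure D2:**
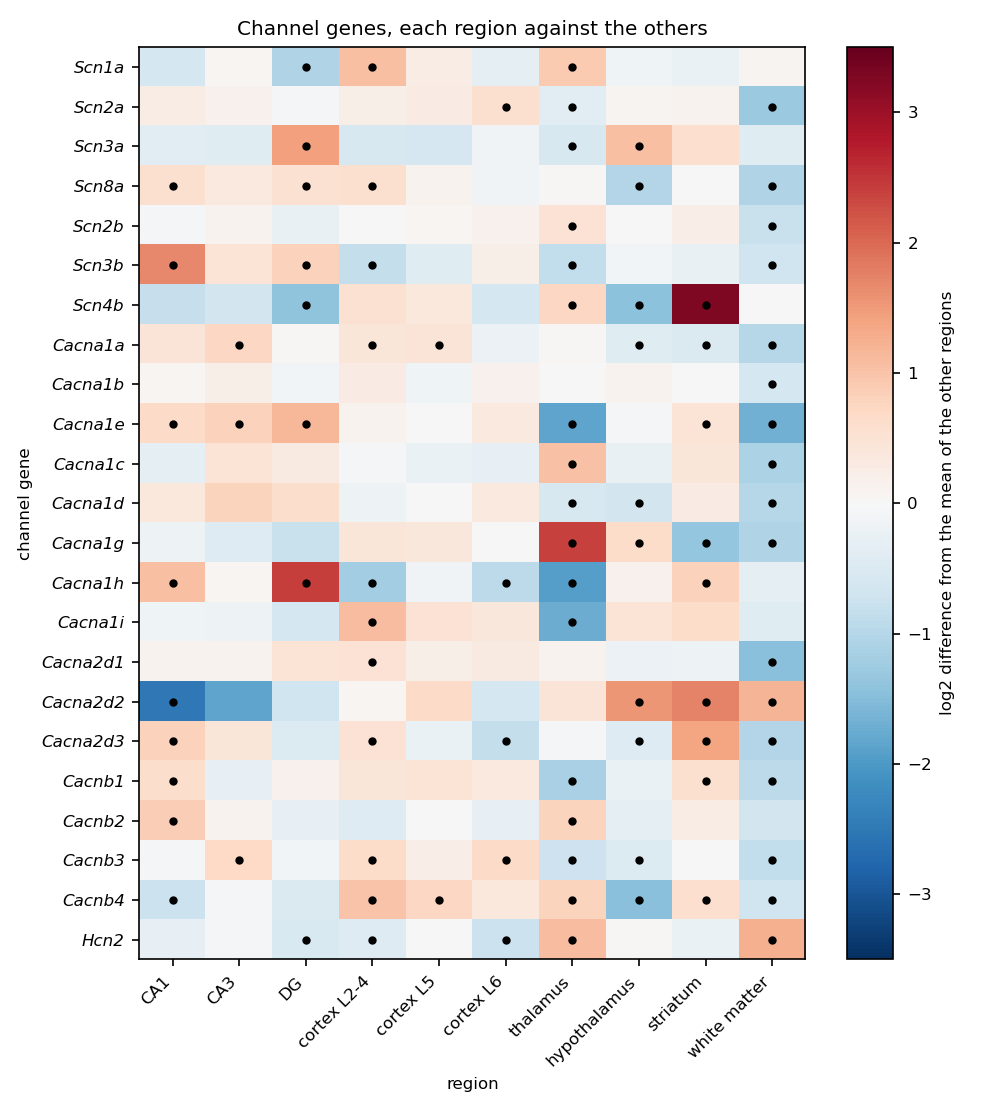
Log2 difference of 23 of the tested channel genes (y axis) in each region (x axis) from the mean of the other 9 regions, from 1 edgeR model over 40 sums. Red is higher, blue lower, and a black dot marks an adjusted p under 0.05; the strongest red is Scn4b in striatum, at 3.28.

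Among the pore-forming sodium channel genes, each tested one had its own regional profile. Scn1a, the channel that parvalbumin interneurons depend on, was high in cortex layers 2 to 4 at 112, 142, 79.4 and 129 CPM, a log2 difference of 1.05 ± 0.15 (SE) from the other regions (edgeR adjusted p = 3.76e-08). It was also higher in thalamus (log2 0.91) and lower in DG (-1.05). Scn2a, the main channel of excitatory axons early in life, had 168, 179, 277 and 250.4 CPM in cortex layer 6, higher than elsewhere by 0.57 ± 0.12 on the log2 scale (edgeR adjusted p = 4.75e-04). Both untrained sections were above both trained ones there. The call was lost without smoothing of the region scores and in thinned sums, and the adjusted p ran from 3.30e-04 to 0.762 over 11 alternatives.

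Scn3a, best known from the embryonic brain, was highest in DG and hypothalamus. In DG its levels were 99.0, 73.6, 40.0 and 31.0 CPM (log2 difference 1.43 ± 0.27, edgeR adjusted p = 2.85e-05) and in hypothalamus 45.9, 57.4, 31.4 and 52.5 CPM (1.05 ± 0.20, edgeR adjusted p = 1.75e-05). The means of these regions, 60.9 ± 31.4 and 46.8 ± 11.3 CPM, overlapped within their spread. Scn8a, the channel of the axon initial segment and of the nodes of Ranvier, was higher in CA1 (log2 0.57), DG (0.52) and cortex layers 2 to 4 (0.56) and lower in hypothalamus (-1.02) and white matter (-1.05).

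The rarer sodium channel genes Scn7a and Scn9a did not pass the filter on low counts. Both had their highest mean in hypothalamus. Scn9a, known from pain-sensing neurons, had 15.3, 22.1, 6.28 and 37.8 CPM there. In the same model without the filter its log2 difference there was 3.32 (edgeR adjusted p = 9.18e-14). Scn7a, which encodes a sensor of sodium concentration, was not called in the test over all regions in that model (edgeR adjusted p = 0.327). Hypothalamus taken alone was higher (2.34, edgeR adjusted p = 0.0135), but it was the highest region of Scn7a in only 1 of 4 sections. The UMIs of Scn9a and Scn7a over all sections were only 133 and 69.

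The auxiliary sodium channel genes Scn4b, Scn3b and Scn2b had their highest means in striatum, CA1 and thalamus. Scn4b, whose protein tail can block the open pore and let resurgent current flow, marked the striatum, at 421, 516, 169 and 242 CPM against 85.8, 98.6, 50.3 and 66.2 CPM in thalamus, the region with the next highest mean. Striatum was the highest region in all 4 sections. The log2 difference of the striatum was 3.28 ± 0.13 (edgeR adjusted p = 3.34e-37). In DG, with 22.5, 44.2, 0 and 4.43 CPM, Scn4b was lower than elsewhere by a log2 difference of -1.40 (edgeR adjusted p = 0.00425), which was not called without untrained 2 (-1.11, adjusted p from 6.28e-04 to 0.0548 over 10 alternatives).

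Scn3b marked CA1 with 241, 361, 327 and 255 CPM, above every other region in all 4 sections (log2 difference 1.69 ± 0.14, edgeR adjusted p = 1.32e-16). It was also higher in DG (0.80) and lower in thalamus (-0.87), cortex layers 2 to 4 (-0.85) and white matter (-0.70). Scn2b, a beta subunit of axons and nodes of Ranvier, ranged from 98.1 ± 10.9 CPM in white matter to 251 ± 30.4 CPM in thalamus, and was called in those 2 regions only among the 10 (-0.78 and 0.51).

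The T-type calcium channel genes each had their highest mean in a different region. Cacna1g, whose current drives burst firing of thalamic relay cells, had 207, 243, 171 and 195 CPM in thalamus. Every other region stood lower in every section, the next by mean being the hypothalamus at 71.3 ± 12.1 CPM. The log2 difference of the thalamus was 2.38 ± 0.13 (edgeR adjusted p = 3.08e-28). In striatum Cacna1g had 11.4, 15.8, 35.2 and 35.1 CPM, or 5, 12, 5 and 10 UMIs, and a log2 difference of -1.34 ± 0.29 (edgeR adjusted p = 2.33e-04). That call was lost without trained 2 (-0.82), and its adjusted p ran from 9.27e-06 to 0.124 over 10 alternatives.

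Cacna1h, another T-type gene, had a different profile. In DG its levels were 229.6, 78.5, 119.9 and 173 CPM, the highest of the tested regions in every section although they spread widely, and the log2 difference was 2.42 ± 0.19 (edgeR adjusted p = 2.84e-18). It was higher in CA1 too (1.06) and lower in thalamus (-1.92). In cortex layers 2 to 4 it had 18.7, 15.8, 15.9 and 13.1 CPM (log2 -1.22, edgeR adjusted p = 4.12e-04), not called without smoothing of the region scores. In cortex layer 6 it had 26.1, 18.4, 13.2 and 17.9 CPM (log2 -0.91, edgeR adjusted p = 0.0472), and 1 of 10 alternatives kept that call, with adjusted p from 0.0494 to 0.397 over 10 alternatives and log2 values of -1.07, -0.72, -0.88 and -0.87 without trained 1, trained 2, untrained 1 and untrained 2.

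Cacna1i, the T-type gene known from thalamic reticular and cortical neurons, stood at 37.4, 76.9, 37.1 and 43.7 CPM in cortex layers 2 to 4. That was higher than the other regions by 1.08 ± 0.23 on the log2 scale (edgeR adjusted p = 2.24e-04), with trained 2 well above the other sections. Without trained 2 the difference was 0.74 and not called (adjusted p from 4.63e-06 to 0.106 over 9 alternatives). In thalamus Cacna1i was lower than elsewhere (-1.72), so that of the T-type genes Cacna1g alone was higher there.

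Of the genes for high-voltage-activated calcium channels, Cacna1e (R-type) had the widest range. Its mean was highest in DG, at 154 ± 59.7 CPM (log2 difference 1.17 ± 0.18, edgeR adjusted p = 2.33e-07). CA3 had 153, 67.9, 110.1 and 188 CPM (0.81 ± 0.22, edgeR adjusted p = 0.00793), but the call was lost with the stricter region threshold, without trained 1 (0.72) and without untrained 2 (0.60), the adjusted p running from 6.52e-04 to 0.209 over 10 alternatives. White matter had 25.0, 24.0, 13.7 and 12.9 CPM (-1.68, edgeR adjusted p = 3.50e-07), and thalamus was lower too (-1.84). Cacna1a (P/Q-type) was higher in CA3 (0.71), where it was above all other tested regions in every section at 151 ± 10.4 CPM, and in cortex layers 2 to 4 (0.42) and layer 5 (0.45). The L-type gene Cacna1c was higher in thalamus (1.02). Cacna1d, the other L-type gene, was lower in thalamus (-0.56), hypothalamus (-0.63) and white matter (-1.01) and called higher in no region.

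The auxiliary Cacna2d subunits, which raise the number of calcium channels at the membrane and, for Cacna2d1 and Cacna2d2, bind gabapentin, also differed by region. Cacna2d2 was nearly missing from CA1, at 4.92, 3.88, 0 and 4.25 CPM, or 1, 1, 0 and 1 UMIs (log2 difference -2.49 ± 0.65, edgeR adjusted p = 0.00348). In striatum it had 52.6, 44.8, 106 and 45.6 CPM (1.73, edgeR adjusted p = 3.72e-08), with untrained 1 far above the other 3 sections. In hypothalamus it had 48.1, 50.8, 44.0 and 50.4 CPM (1.54, edgeR adjusted p = 1.22e-07), the most even of its levels. White matter was the region where most channel genes were lower, yet Cacna2d2 had 25.0, 46.4, 27.4 and 21.5 CPM there (1.203, edgeR adjusted p = 0.00171). Limma voom did not call it, nor did edgeR without trained 2 (0.56; adjusted p from 0.00116 to 0.483 over 8 alternatives). Cacna2d3 was higher in striatum (1.37), CA1 (0.81) and cortex layers 2 to 4 (0.50). Cacna2d1 was higher only in cortex layers 2 to 4 (0.50) and lower only in white matter (-1.46) among the 10 regions. Cacna2d4, a subunit of photoreceptors, had 91 UMIs in all, and its highest mean was in thalamus, at 11.7 ± 4.52 CPM.

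The intracellular Cacnb subunits bind the pore and set its gating. Cacnb4 had its highest mean in cortex layers 2 to 4, at 171 ± 41.9 CPM (log2 difference 1.01 ± 0.12, edgeR adjusted p = 2.57e-10), and was also higher in thalamus (0.79) and striatum (0.58). It had 130.4, 197, 132 and 127 CPM in cortex layer 5 (0.72 ± 0.14, edgeR adjusted p = 8.19e-05), not called without trained 2 (0.49; adjusted p from 1.72e-05 to 0.0925 over 10 alternatives). Its level was 39.3, 36.4, 56.6 and 31.5 CPM in hypothalamus, its lowest region (-1.46, edgeR adjusted p = 2.23e-11). Cacnb3 in cortex layer 6 stood at 212, 184, 211 and 219 CPM, a narrow spread (0.67, edgeR adjusted p = 2.15e-05), and lost its call without smoothing of the region scores. It was also higher in CA3 (0.69) and cortex layers 2 to 4 (0.66). Cacnb1 and Cacnb2 were both higher in CA1 (0.61 and 0.85) and went opposite ways in thalamus, Cacnb1 lower (-1.13) and Cacnb2 higher (0.79).

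Hcn2, an HCN channel strongly gated by cyclic AMP, was higher in thalamus and white matter. In thalamus it had 221, 242, 195 and 225 CPM (log2 difference 1.07 ± 0.10, edgeR adjusted p = 1.89e-16), and in white matter 288, 246, 109.7 and 202 CPM (1.25 ± 0.13, edgeR adjusted p = 6.58e-13). The white matter values spread more, with untrained 1 the lowest. In sums thinned to 45409 UMIs the thalamic difference was 0.42 and not called (adjusted p from 1.37e-31 to 0.398 over 11 alternatives). The white matter spots, where Hcn2 and Cacna2d2 were called higher, also held interneuron markers. These summed to 2278, 2845, 1811 and 1270 CPM there, against 1495, 1494, 1395 and 1304 CPM over whole sections. Their part in the white matter values was not tested. Hcn4, the slow channel of the sinoatrial node, did not pass the filter on low counts. It had 37.3, 62.7, 47.0 and 46.2 CPM in thalamus, above every other tested region in each section, and a log2 difference of 3.70 in the model without the filter (edgeR adjusted p = 1.73e-53). Hcn3 was highest in hypothalamus, at 28.6 ± 6.65 CPM.

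**Figure D3:**
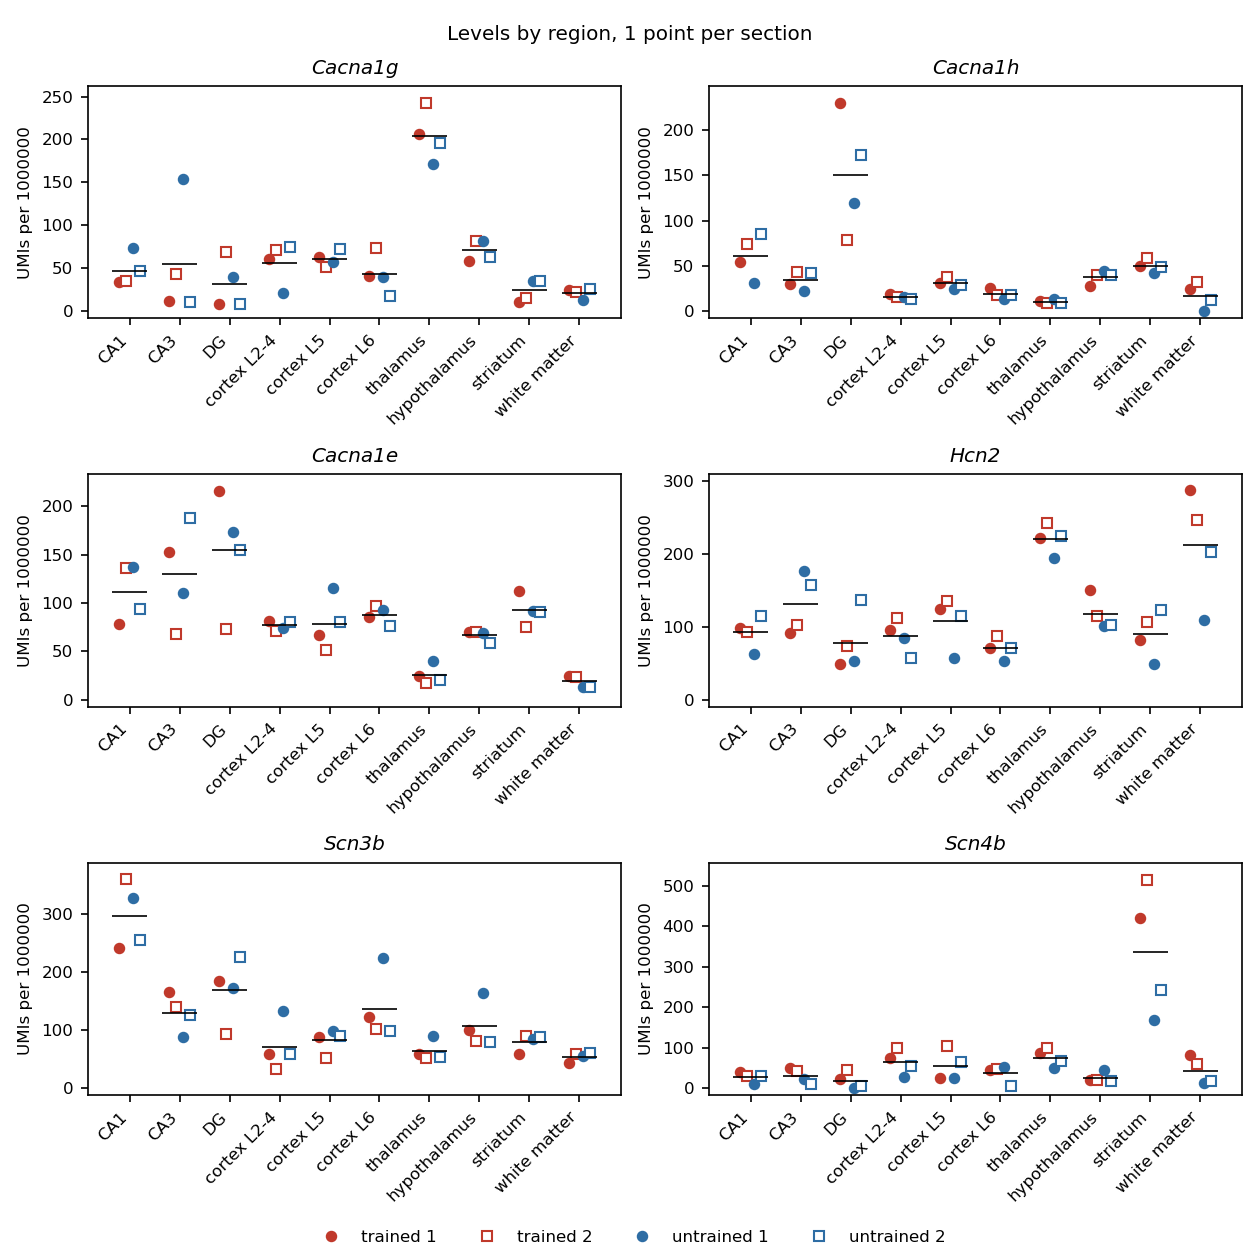
Levels of 6 channel genes (y axis, UMIs per 1000000) in the 10 tested regions (x axis), 1 point per section, red for trained and blue for untrained, with a black line at the mean of the 4 sections. Cacna1g stands highest in thalamus, Cacna1h in DG, Scn3b in CA1 and Scn4b in striatum in all 4 sections.

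Genes that anchor, carry or regulate these channels were counted beside them from 5 lists. All 11 tested anchors and partners of sodium channels differed between regions, as did 11 of 12 calcium channel partners, 5 of 5 Cacng genes (AMPA receptor regulators named for their likeness to a calcium channel subunit), 2 of 3 HCN partners and 10 of 10 genes of calcium extrusion and stores, beside 64.3% of all genes. Pex5l, which carries HCN channels to the dendritic membrane, was higher in CA1 (1.22), white matter (1.27), cortex layer 5 (0.46) and thalamus (0.39) and lower in CA3 (-1.48), DG (-0.94), hypothalamus (-0.49) and striatum (-0.51). Rem2, a small GTPase that restrains calcium channels, was higher in striatum (2.65), CA1 (1.81) and CA3 (1.33). Cabp1, a calcium sensor of calcium channels, was higher most of all in cortex layers 2 to 4 (1.83) and lower in hypothalamus (-1.66) and thalamus (-1.51). In white matter all 10 tested genes of calcium extrusion and stores were called lower, beside 15.6% of all genes.

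Some of the channel genes lie near each other in the genome. In GENCODE vM21 (GRCm38) 8 of the 36 lie on chromosome 2 and 8 on chromosome 9, and no other gene of the files overlaps any of the 36 on the same strand. Scn3a, Scn2a, Scn1a, Scn9a and Scn7a follow each other on chromosome 2, from chr2:65457118-65567627 to chr2:66673425-66784914, and their highest means were in DG, cortex layer 6, cortex layers 2 to 4 and, for Scn9a and Scn7a, hypothalamus. Scn2b (chr9:45117782-45130070) and Scn4b (chr9:45138395-45154152) lie 8325 bases apart on the plus strand of chromosome 9, and had their highest means in striatum (Scn4b) and thalamus (Scn2b). Their promoters are printed because these neighbors peak in different regions, beside those of Hcn2 and Hcn4, which were both high in thalamus. RefSeq promoter windows (GRCm38.p6, 250 bases before to 50 after the start, plus strand, written 5′ to 3′) were matched by symbol for 21 of the 31 genes. The RefSeq start can differ from the GENCODE gene start. Hcn4 starts at chr9:58823412 in GENCODE, after the end of its window, and most of the Scn4b window lies after the GENCODE start of Scn4b. Capitals mark GGGCGG or its reverse complement CCGCCC, the core of the GC box, which was searched on both strands.
Scn2b, chr9:45117626-45117925: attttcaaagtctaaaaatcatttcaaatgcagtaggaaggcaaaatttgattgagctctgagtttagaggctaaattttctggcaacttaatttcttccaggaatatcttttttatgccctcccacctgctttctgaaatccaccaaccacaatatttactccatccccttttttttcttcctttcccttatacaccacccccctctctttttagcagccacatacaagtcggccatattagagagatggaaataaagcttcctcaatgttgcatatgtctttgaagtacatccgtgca
Scn4b, chr9:45138374-45138673: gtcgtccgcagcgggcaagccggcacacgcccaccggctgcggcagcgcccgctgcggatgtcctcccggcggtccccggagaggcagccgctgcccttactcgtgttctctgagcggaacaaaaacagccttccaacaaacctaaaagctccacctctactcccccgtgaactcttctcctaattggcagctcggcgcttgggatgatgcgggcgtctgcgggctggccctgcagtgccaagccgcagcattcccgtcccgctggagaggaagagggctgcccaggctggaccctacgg
Hcn2, chr10:79716384-79716683: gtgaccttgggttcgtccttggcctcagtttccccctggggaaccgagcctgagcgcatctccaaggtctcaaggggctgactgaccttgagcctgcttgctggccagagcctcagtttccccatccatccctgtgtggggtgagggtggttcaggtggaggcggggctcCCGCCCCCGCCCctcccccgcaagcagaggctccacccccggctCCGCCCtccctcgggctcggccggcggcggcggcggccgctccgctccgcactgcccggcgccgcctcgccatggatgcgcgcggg
Hcn4, chr9:58822699-58822998: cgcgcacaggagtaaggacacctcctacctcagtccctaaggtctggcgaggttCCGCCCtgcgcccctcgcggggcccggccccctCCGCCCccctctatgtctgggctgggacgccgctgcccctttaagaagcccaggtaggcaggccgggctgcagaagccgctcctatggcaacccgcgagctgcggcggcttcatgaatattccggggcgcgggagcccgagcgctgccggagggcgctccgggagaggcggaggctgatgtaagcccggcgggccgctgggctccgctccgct
The window of Scn4b was 66.3% G and C with 26 CG pairs, and that of Scn2b 38.3% with 2, while the median over all windows was 52.7%. The Hcn2 and Hcn4 windows held 3 and 2 matches to the GC box core and the other pair none. A match was found for 13 of the 21 channel genes (61.9%) and for 38.2% of the 27025 genes in the table. TATAAA was found in none of the 4 windows.

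The second question was whether channel genes differed between trained and untrained mice. In sums over whole sections edgeR called 0 of 31 channel genes, beside 0.0145% of the 13810 genes tested. At an unadjusted p under 0.05 there were 4 channel genes and 1099 genes in all. DESeq2 called 1 (0.152% of all genes) and limma voom 0 (0.0145%). The 31 log2 fold changes were 15 above and 16 below 0, with a median of -0.02, and the median of all genes was 0.01. In the regions edgeR called 0 of 19 channel genes in CA1, 0 of 12 in CA3, 0 of 18 in DG, 0 of 26 in cortex, 0 of 23 in thalamus and 0 of 27 in hypothalamus. Of all genes 0.0428%, 0%, 0%, 0.0199%, 0.113% and 0.0921% were called there. The channel genes at an unadjusted p under 0.05 numbered 0, 1, 2, 3, 1 and 1 in these regions, beside 241, 127, 179, 589, 555 and 404 genes in all, and DESeq2 and limma voom called 0 in each. With 2 sections per condition an exact two-sided permutation test of a single value cannot go below 0.333. Without trained 1 the whole-section count was 7 (Scn4b, Scn3b, Cacnb1, Cacnb3, Cacna2d1, Scn2a and Cacna1e) beside 848 of 14218 genes (5.96%), and without trained 2 it was 1 (Scn4b) beside 0.283% of genes.

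Cacna2d1 in CA3 had 16, 17, 0 and 18 UMIs, or 98.1, 82.4, 0 and 188 CPM. The untrained sections lay on either side of the trained ones, so the groups overlapped. The log2 fold change was -0.47 ± 0.63 (SE), with an edgeR adjusted p of 0.999, and the training effect in CA3 differed from that in the other regions by -0.23 ± 0.51 (edgeR adjusted p = 1). The sign rested on the untrained sections: it was -1.01 without untrained 1. Without untrained 2 the only untrained value is 0, and the trained mean was 1.37-fold its limit of 66.1 CPM, which is a lower bound. Limma voom gave 0.76, and the adjusted p ran from 0.269 to 1 over 11 alternatives. With a looser region threshold, chosen after seeing the data, CA3 of untrained 1 had 8 UMIs of Cacna2d1, and the values were 95.1, 72.7, 87.1 and 176 CPM. The placement of the 22 spots, their depth and the mouse cannot be told apart as sources of the 0 in untrained 1. Cacna2d3, the related subunit, also had 0 UMIs in those spots, against 13, 20 and 17 in trained 1, trained 2 and untrained 2.

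Over whole sections Cacna2d1 had 84.8, 82.1, 112 and 107 CPM, with the trained sections below the untrained ones. Its log2 fold change was -0.46 ± 0.12 (edgeR adjusted p = 0.497), which failed the correction except without trained 1 (-0.54; adjusted p from 0.00709 to 0.999 over 11 alternatives). In thalamus it had 85.8, 91.8, 87.2 and 122 CPM (-0.35) and in hypothalamus 54.6, 78.4, 69.1 and 105 CPM (-0.52). The groups overlapped in both. Over alternatives the thalamic value ran from -0.52 to -0.02. The sign in hypothalamus turned in thinned sums (0.08).

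Scn4b had the smallest p of the channel genes over whole sections. Its levels were 80.2, 104, 42.4 and 53.5 CPM, both trained sections above both untrained ones, with a log2 fold change of 0.85 ± 0.15 and an edgeR adjusted p of 0.243. The comparison was not called, but 5 of 11 alternatives called it, among them DESeq2 and the fits without trained 1 (0.96) and without trained 2 (0.70), and the adjusted p ran from 5.13e-09 to 0.896 over 11 alternatives. Striatum spots, where Scn4b is highest, made up 5.79%, 4.98%, 3.52% and 3.65% of all spots of the sections, more in both trained ones. However, only 1301, 1551, 780 and 1251 spots were assigned to any region, fewest in untrained 1. These shares therefore also depend on how many spots were assigned, and that part was not tested. The 7 striatum markers summed to 851, 871, 653 and 601 CPM over whole sections, 6 of the 7 higher in both trained sections, and Penk was the most abundant at 346, 306, 259 and 234 CPM. With striatum spots left out, an alternative chosen after seeing the data, Scn4b had 57.9, 71.7, 37.2 and 44.9 CPM and a log2 fold change of 0.56 (edgeR adjusted p = 0.475). The spots left out held 2784, 5431, 577 and 1521 of the 6056, 8997, 2325 and 3953 striatum marker UMIs of the sections. Striatum marker UMIs thus remained in the other spots of every section, and this value does not stand for tissue free of striatum.

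Within striatum spots, a comparison likewise added after seeing the data, edgeR called 0 of 25 channel genes, beside 0% of 6579 genes. At an unadjusted p under 0.05 there were 5 channel genes and 421 genes in all. DESeq2 called 0 (0% of all genes) and limma voom 1 (0.213%). Scn4b was at 421, 516, 169 and 242 CPM, again with both trained sections on top, and its log2 fold change was 1.09 ± 0.21 (edgeR adjusted p = 0.0843). It was called in 7 of 13 alternatives, limma voom and the fits without trained 1 (1.14) and without trained 2 (1.04) included, the adjusted p running from 1.09e-04 to 0.984 over 13 alternatives. The striatum markers too stood higher in the trained sections inside these spots. They summed to 6370.1, 7161, 4065 and 5331 CPM, 5 of 7 higher in both trained sections, none of them at 0, and Penk stood at 2501, 2433, 1465 and 2005 CPM. Per 1000 UMIs of the 7 markers there were 66.1, 72.0, 41.6 and 45.4 UMIs of Scn4b in striatum spots, and 94.3, 119.7, 64.9 and 89.0 in whole sections, where both trained sections remained above both untrained ones. The part of the markers and of section depth in these values was not tested.

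**Figure D4:**
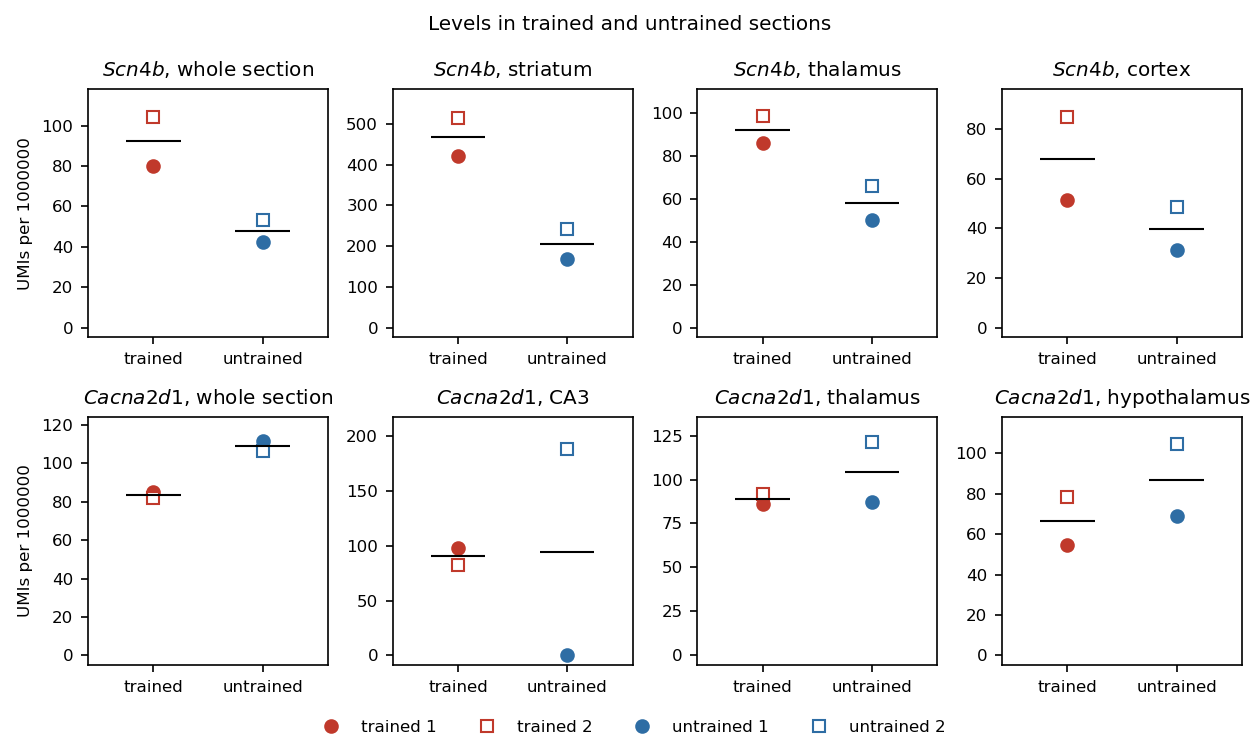
Levels (y axis, UMIs per 1000000) of Scn4b and Cacna2d1 in trained (red) and untrained (blue) sections (x axis), filled circles for replicate 1 and open squares for replicate 2, with black lines at the group means. Scn4b lies higher in both trained sections in all 4 panels, and Cacna2d1 in CA3 spans 0 to 188 CPM in the untrained sections.

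Scn4b was among the 3 channel genes with the smallest p in other regions too. Thalamus had 85.8, 98.6, 50.3 and 66.2 CPM (log2 fold change 0.55 ± 0.23) and cortex 51.4, 84.7, 31.1 and 48.6 CPM (0.58 ± 0.27). In both regions the trained sections were above the untrained ones, and neither was called (edgeR adjusted p = 0.725 and 0.852). Over alternatives the value ran from 0.43 to 0.83 in thalamus and from 0.23 to 1.06 in cortex. In striatum the next genes by p were Cacna2d3, at 169, 206, 91.6 and 102 CPM (0.89), and Scn3a, at 48.1, 44.8, 14.1 and 17.5 CPM (1.42). Neither was called and in neither did the groups overlap.

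Scn3b over whole sections had 87.8, 77.6, 124 and 94.7 CPM, lower in the trained sections (-0.47 ± 0.15), and 85.1, 60.6, 140.0 and 78.8 CPM in cortex (-0.58), where the groups overlapped. Cacna1c in cortex had 27.7, 34.3, 51.8 and 44.9 CPM (-0.69), lower in the trained sections. The edgeR adjusted p of these 3 comparisons was 0.582, 0.852 and 0.852. Cortex held 290, 298, 135 and 318 spots, and the dorsal cortex of untrained 1 was not captured. The part of this in the cortex and whole-section values, also those of Scn4b, was not tested. Over alternatives the log2 fold change of Scn3b ran from -0.66 to -0.27 over whole sections and from -1.04 to -0.23 in cortex. The 5 CA1 markers summed to 149, 126, 185 and 176 CPM over whole sections. Of these markers 2 were lower in both trained sections and 0 higher in both. Inside CA1 spots the log2 fold change of Scn3b was 0.10 (edgeR adjusted p = 0.996). The part of the CA1 markers in the Scn3b values was not tested. Scn3b over whole sections was called without trained 1 (-0.62; adjusted p from 0.00148 to 0.999 over 11 alternatives).

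In the hippocampal layers the smallest p belonged to Cacnb1, Scn2b, Hcn2, Scn3a, Cacnb3 and Cacna1g. Cacnb1 had 55.2, 19.4, 132 and 105 CPM in CA3 (-1.67 ± 0.64) and 83.7, 85.3, 148 and 111 CPM in CA1 (-0.55 ± 0.35), lower in the trained sections of both. Its levels were 29.9, 28.5, 43.6 and 36.9 CPM in thalamus (-0.51) and 41.5, 56.3, 69.1 and 69.3 CPM in hypothalamus (-0.52). These 4 regions share the same sections, so they are not separate evidence of a direction. Scn3a in DG had 99.0, 73.6, 40.0 and 31.0 CPM (1.43 ± 0.48), both trained sections above both untrained ones, and Cacnb3 in DG 99.0, 93.3, 213 and 151 CPM (-0.75 ± 0.35), both below. Hcn2 had 92.0, 102, 176 and 157 CPM in CA3 (-0.75), again without overlap, and 49.5, 73.6, 53.3 and 137 CPM in DG (-0.78), where the groups overlapped and the sign turned without untrained 2 (0.28). Scn2b had 197, 202, 201 and 115 CPM in CA1 (0.46, or -0.04 without untrained 2), where the groups overlapped, and 196, 165, 264 and 230.1 CPM in CA3 (-0.44). Cacna1g in CA1 had 34.5, 34.9, 73.9 and 46.8 CPM (-0.67). In the CA3 spots the 4 blood genes were also lower in both trained sections, with sums of 258, 238, 771 and 617 CPM, and their part in the CA3 values was not tested. The CA3 spots of untrained 1 fell into 6 separate groups, some outside the hippocampus, and held the most thalamus and striatum markers. The part of this placement in the CA3 values of Cacnb1, Hcn2 and Scn2b was not tested either. The edgeR adjusted p of all these channel genes was at least 0.901, with no call in any alternative.

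In hypothalamus Scn8a had 63.3, 54.1, 81.7 and 83.9 CPM (-0.60 ± 0.29, edgeR adjusted p = 0.921), lower in both trained sections. The hypothalamus spots themselves differed between sections: their 8 markers summed to 1723, 17543, 10872 and 6495 CPM, led by Pmch, the gene of melanin-concentrating hormone, at 664, 10589, 8716 and 4823 CPM. The lowest and the highest sum were both trained, and the part of these markers in the hypothalamus values was not tested.

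Whether a training effect differed between regions was tested directly. Of the 25 channel genes 0 were called, beside 0.0557% of the 7182 genes, and 0 in each single region (0.0278% of all genes in DG, 0.0418% in hypothalamus and 0% elsewhere). Over all regions 1 channel gene, Cacna2d3, had an unadjusted p under 0.05 (0.0328, edgeR adjusted p = 0.977), as did 335 genes in all. Of the partner lists, trained against untrained, 0 genes were called over whole sections: 0 of 13 anchors and partners of sodium channels, 0 of 16 calcium channel partners, 0 of 7 Cacng genes, 0 of 6 HCN partners and 0 of 12 genes of calcium extrusion and stores. Their median log2 fold changes were -0.13, -0.04, -0.14, 0.00 and -0.06, beside 0.01 for all genes.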

How the data were processed

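Visium counts of 2 trained and 2 untrained mice were used, 1 section per mouse. The authors deposited raw UMI counts per gene and spot. The study's methods name Space Ranger v2.0.0 and mm10, the file header names Space Ranger 1.2.2, and the submitters' processing notes list Cell Ranger 8 and STAR with another build for the samples as a whole. Coordinates here are GRCm38 (mm10). A slide barcode stands for an array position, and 1330 positions held tissue in all 4 sections.

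Spots were scored on marker lists (counts scaled to 10000 per spot, each spot averaged with its 6 neighbors at a weight of 50%) and assigned at a score of at least 0.4, a lead of 0.05 and 2 adjacent spots of the same region. These thresholds were set after seeing the data. The channel genes and all lists were chosen with earlier results of these data known. UMIs were summed per section and region and compared with edgeR 4.0.16 (filterByExpr, TMM, quasi-likelihood F-test, two-sided) in R 4.3.3, adjusted by Benjamini-Hochberg over all genes tested, at a threshold of 0.05. Training was compared over 4 sums, and regions over 40 sums blocked by section, which stem from 4 mice only. With 1 section per mouse, training p-values rest on the spread between sections, with 2 residual degrees of freedom. The edgeR fit pools this spread with that of other genes, at prior degrees of freedom of 8.15 (whole sections) to 43.0 (thalamus). Region p-values rest on the scatter left after the section block, with 27 residual degrees of freedom. They do not measure differences in level between sections or mice. SE was taken as the log2 value divided by the square root of F. Limits for 0 UMIs and SDs cover counting error and the spread of these sections only.

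Values in every section are given for Cacna2d1 in CA3, for the 3 channel genes with the smallest p in each training comparison, and, per region, for the 2 called genes with the largest positive and the 1 with the largest negative difference. Some of these are not reported here. Other named genes were chosen after their values were seen. Alternatives were DESeq2 1.42.0, limma voom 3.58.1, no filter on low counts, abundant genes left out, thinned sums, the replicate block, no block of section, other region thresholds, no smoothing, and each section left out. The tests were checked on simulated counts. Single-nucleus data and section images were not analysed here.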

Additional observations from a re-analysis of the deposited data

Results flagged for a closer look

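The spots of the medial habenula numbered 21, 33, 16 and 19, too few in untrained 1 and untrained 2 for the comparisons, so they are described only. They stood apart because 2 channel genes were higher there than in all 10 tested regions in every section. Cacnb3 had 766, 637, 784 and 911 CPM, a mean of 774 ± 112 CPM from 72, 43, 17 and 59 UMIs, against a mean of 210.2 CPM in CA3, the highest of the tested regions by mean. Cacna2d2 had 138, 88.8, 184 and 61.8 CPM, a mean of 118 ± 54.3 CPM from 13, 6, 4 and 4 UMIs, against 62.2 ± 29.2 CPM in striatum. Medial habenula markers were higher inside these spots than outside them in every section for 7 of 7 genes, but the same markers had assigned the spots. Both values are descriptions without a test.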

How the results depend on the processing

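Among alternative values of the counts of channel genes and of Cacna2d1 in CA3, 211 stayed the same (within 1.5 times, or on the same side of the threshold), 32 moved and 2 reversed. For other single genes 539 stayed the same, 14 were stronger, 23 weaker and 5 reversed. For trained against untrained over whole sections the main fit called 0 channel genes, beside 0.0145% of all genes. The count became 1 with DESeq2 (0.152% of all genes), with no filter on low counts (1.05%) and with the replicate block (0.340%). It also changed when a section was left out. It stayed at 0 in CA1, CA3, DG, cortex, thalamus and hypothalamus under every alternative run. In striatum it became 1 with limma voom (0.213% of all genes), with abundant genes left out (0.0941%) and with the replicate block (0.456%). It was also 1 without smoothing (0.247%) and with the looser threshold (0.144%), and it changed in some fits without a section. The main fit called 0% of all genes in striatum, so these fits called more of all genes too. The gene was Scn4b except without trained 1 over whole sections. The cause of these shifts was not tested. A fit without a section leaves 1 sum in a group, which is assumed to vary like the other group.

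The labels do not say whether the replicate numbers pair the samples. Across genes, deviations of same-numbered sections correlated at -0.0101 in CA1 to 0.0892 in cortex. A pairing that touches few genes would not show in these correlations. Among channel genes the block changed no other training call than that of Scn4b over whole sections and in striatum. Calls among all genes rose with it from 2 to 47 over whole sections and from 0 to 30 in striatum. They rose from 2 to 36 in cortex and from 10 to 33 in thalamus, and stayed at 0 in CA3.

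Cacna2d1 in CA3 ran from -1.01 to 6.64 when a section was left out and was 0.76 with limma voom. The 6.64 is fitted against 0 UMIs and is no bound. It gave no value without smoothing or in thinned sums, where it did not pass the filter. Its difference from the other regions was 0.51 with limma voom and ran from -0.77 to 8.12 when a section was left out. Also reversed were Scn2b in CA1, from -0.0432 (without untrained 2) to 0.785 when a section was left out, Hcn2 in DG, from -1.22 to 0.275 (without untrained 2), and Cacna2d1 in hypothalamus, at 0.0763 in thinned sums.

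Between regions, sums thinned to 45409 UMIs left 7 channel genes to test, so that 5 differed, against 24 of 25. Against the other regions, thinned counts were 2 in CA1, 1 in CA3, 1 in DG, 1 in cortex layers 2 to 4, 0 in layer 5, 1 in layer 6, 1 in thalamus, 1 in hypothalamus, 0 in striatum and 5 in white matter. Without the section as a block layer 5 had 2. The stricter threshold gave 2 in layer 6. Without smoothing layer 6 had 0 and hypothalamus 7. With a section left out the counts ran from 6 to 9 in CA1, 5 to 9 in DG, 1 to 4 in layer 5 and 3 to 4 in layer 6. All these counts of channel genes stand without the percentage of all genes called in the same fits. They therefore show no change particular to channel genes. Of 28 regional differences followed 17 were called under every alternative that tested them.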
